A study of Mus musculus with 16 samples.

Results

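The genes described here are 8 members of the PARP family, Parp1, Parp3, Parp8, Parp9, Parp10, Parp11, Parp12 and Parp14, and the ubiquitin ligase gene Dtx3l. They were chosen with earlier results of these data known, so their counts beside the shares of all genes are a description and no test of the group. Their values were taken by symbol, as the array features that the platform annotation assigns to one of these names. All 9 were found, each with 1 feature of its own, among 19938 genes that could be named. RNA came from macrophages grown out of mouse bone marrow and was measured on Affymetrix mouse gene arrays, and the deposited values are log2 intensities.

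The 16 arrays fall into 6 groups by treatment and time. Pretreated macrophages were measured at 0 h (4 arrays), 3 h (2 arrays) and 6 h (2 arrays), and naive macrophages at 0 h (4 arrays), 3 h (2 arrays) and 6 h (2 arrays). All groups share the H3.3-HA knock-in genotype, a tagged histone variant, and growth in L-cell conditioned medium, and the treatment named in the labels is interferon-gamma. Only a token in the sample titles ties the pretreatment to interferon, and the sources used here give neither its dose nor its length nor any rest before 0 h. No unstimulated cells were measured at 3 or 6 h, so the effects of interferon and of time in culture cannot be told apart. The labels do not say whether the arrays of a group came from separate cultures or animals, and the p-values therefore cover the spread among these arrays, possibly only technical.

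The title numbering divides the arrays into 2 sets of 8. Set 2 holds the 3 h arrays and set 1 the 6 h arrays, each with 2 naive and 2 pretreated arrays at 0 h, and column medians differed between the sets (6.886 to 6.997 in set 2 and 7.151 to 7.226 in set 1). Every change below was therefore taken within a set, and levels are not compared across sets or between genes. All 8 macrophage markers, Adgre1 and Csf1r among them, lay above a level of 6.5, used here as the limit of dim features, on all 16 arrays. Of 20 measured markers of other blood cells and of fibroblasts, 9 were below that limit on every array, 8 were above it on some arrays (Cd4 on 13) and 3, Zbtb46, Col1a1 and Col1a2, on all 16. The part of other cell types in the results was not tested. Over all genes, the 2 arrays of a group within a set had a Pearson r of 0.9896 to 0.995.

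PARP enzymes use NAD to attach ADP-ribose to proteins. A few of them, with Parp1 foremost, build chains of ADP-ribose at broken DNA, while most of the family attach single units. Parp9 and Dtx3l form a complex that joins ADP-ribose binding to ubiquitin ligation, and several single-unit enzymes, among them Parp10, Parp12 and Parp14, are known as interferon-induced genes with roles in antiviral defence and macrophage activation.

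In naive macrophages, 7 of the 9 genes rose by 3 h and 8 rose by 6 h, and Parp1 alone had lower values at both times. The 3 h rises lay between 1.09 and 2.02 on the log2 scale (2.13-fold to 4.05-fold), led by Parp10, Parp11 and Parp14. At 6 h Parp11 and Parp3 had the highest values, 1.94 and 1.87. Parp1 thus went against the interferon-linked name of the group, with a fall by 1.09 at 6 h. In a bulk culture, fewer cells that express a gene and less RNA per cell cannot be told apart.

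These counts rest on a moderated linear model (limma) over all 19938 genes, in which a gene counted as changed at a Benjamini-Hochberg adjusted p under 0.05. At 3 h, 7 of the 9 genes were higher and 0 lower, where 3.37% of all genes were higher and 2.09% lower. All 9 had an unadjusted p under 0.05 at 3 h, Parp1 and Parp8 included, against 15.3% of all genes. At 6 h, 8 were higher and 1 lower, where 7.48% of all genes were higher and 10.8% lower. For 8 of the 9 genes both naive 3 h arrays lay above both naive 0 h arrays of the set, as they did for 23.3% of all genes, and for Parp1 both lay below, as for 24.4%. The same 8 and 1 held for naive cells at 6 h, with 24.9% of all genes entirely above and 31.3% entirely below. The median log2 change of the 9 genes was 1.52 at 3 h and 1.26 at 6 h, beside 0.00 and -0.01 for all genes.

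**Figure D1:**
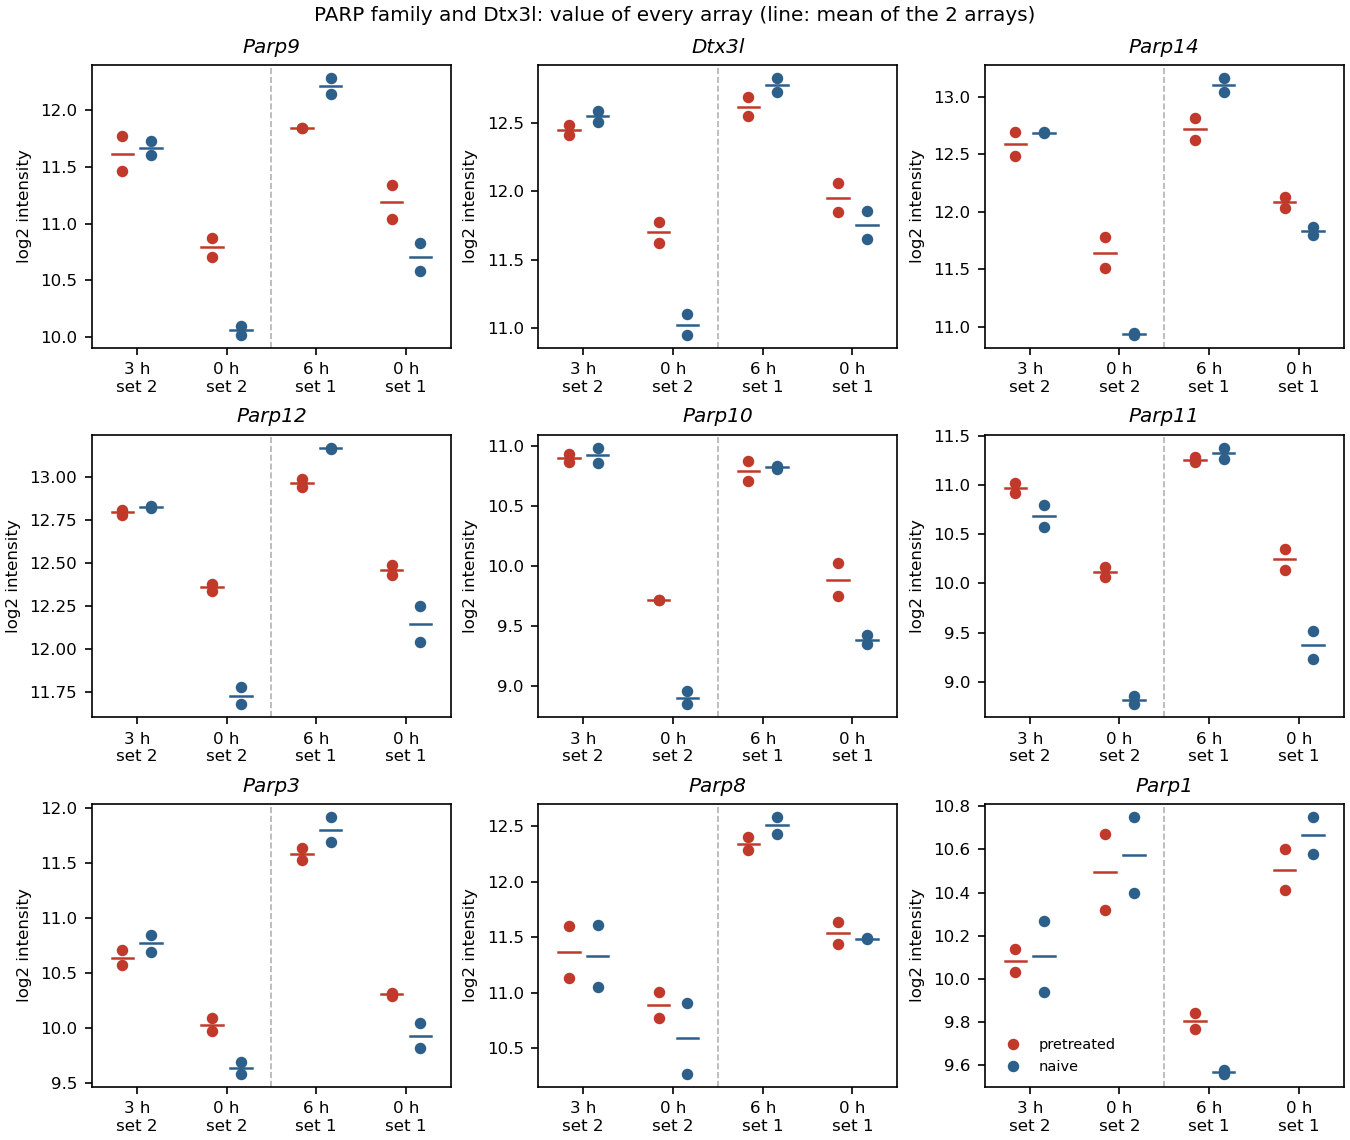
Log2 intensity of each gene on every array (vertical axis, log2 scale, its own range per panel) for pretreated (red) and naive (blue) macrophages at 3 h and 0 h of array set 2 and at 6 h and 0 h of array set 1. Points are arrays and short lines are the means of 2 arrays. Apart from Parp1, the 3 h and 6 h points lie above the 0 h points of the same cells and set, and for Parp1 they lie below.

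Parp9, Dtx3l and Parp14 lie side by side on mouse chromosome 16, and the annotated spans of Dtx3l and Parp9 overlap by 558 bases. Parp9 encodes a macrodomain protein that partners Dtx3l. In set 2 its level was 11.77 and 11.46 in pretreated and 11.73 and 11.60 in naive cells at 3 h, against 10.87 and 10.71 in pretreated and 10.02 and 10.10 in naive cells at 0 h. In set 1 Parp9 measured 11.84 on both arrays of pretreated and 12.28 and 12.14 in naive cells at 6 h, against 11.04 and 11.34 in pretreated and 10.83 and 10.58 in naive cells at 0 h. Pretreated and naive arrays thus overlapped at 3 h, while at 6 h the pretreated ones were lower and at 0 h they were higher. In naive cells Parp9 rose by 1.61 ± 0.14 at 3 h (log2 change ± SE, 95% interval 1.30 to 1.91, adjusted p = 1.58e-05) and by 1.5 ± 0.14 at 6 h (1.2 to 1.81, adjusted p = 1.38e-05).

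Dtx3l, the deltex-type ubiquitin ligase of the pair, had levels of 12.49 and 12.41 in pretreated and 12.59 and 12.51 in naive cells at 3 h, against 11.78 and 11.62 in pretreated and 11.10 and 10.95 in naive cells at 0 h of set 2. At 6 h its level was 12.55 and 12.69 in pretreated and 12.73 and 12.83 in naive cells, against 11.85 and 12.06 in pretreated and 11.65 and 11.86 in naive cells at 0 h of set 1. The 0 h arrays of pretreated and naive cells overlapped in set 1 and not in set 2. Dtx3l rose in naive cells by 1.52 ± 0.12 at 3 h (95% interval 1.26 to 1.79, 2.88-fold, adjusted p = 7.66e-06) and by 1.02 ± 0.12 at 6 h (0.76 to 1.28, 2.03-fold, adjusted p = 9.09e-05).

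Parp14, a large macrodomain enzyme that attaches single ADP-ribose units and is known as a co-activator of Stat6, had levels of 12.69 and 12.48 in pretreated and 12.68 and 12.69 in naive cells at 3 h, against 11.78 and 11.51 in pretreated and 10.93 and 10.95 in naive cells at 0 h of set 2. In set 1 it measured 12.81 and 12.62 in pretreated and 13.16 and 13.04 in naive cells at 6 h, against 12.03 and 12.13 in pretreated and 11.87 and 11.80 in naive cells at 0 h. Both naive 6 h arrays were the highest of their set and both naive 0 h arrays the lowest. The naive change of Parp14 was 1.74 ± 0.12 at 3 h (1.48 to 2.01, adjusted p = 2.55e-06) and 1.26 ± 0.12 at 6 h (1.0 to 1.53, adjusted p = 1.67e-05). None of the rises of Parp9, Dtx3l and Parp14 in naive cells was lost when any 1 array was left out.

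The 4 protein-coding genes flanking this stretch, Hspbap1, Slc49a4, Kpna1 and Wdr5b, had naive log2 changes of 0.03, 0.29, -0.32 and -0.49 at 3 h and of 0.50, 0.24, 0.43 and -0.21 at 6 h. By limma 0 of the 4 passed the adjusted threshold at either time (adjusted p = 0.243 to 0.979 at 3 h and 0.0881 to 0.768 at 6 h). Of all genes 3.37% were higher and 2.09% lower at 3 h, and 7.48% and 10.8% at 6 h. At each time 1 of the 4 had an unadjusted p under 0.05, Wdr5b at 3 h (15.3% of all genes) and Hspbap1 at 6 h. With 4 genes, such counts are no result about the neighbours.

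Parp12 is a zinc-finger PARP known for antiviral activity. It measured 12.81 and 12.78 in pretreated and 12.83 and 12.82 in naive cells at 3 h, against 12.38 and 12.34 in pretreated and 11.68 and 11.78 in naive cells at 0 h of set 2. In set 1 the level of Parp12 was 12.94 and 12.99 in pretreated and 13.16 and 13.17 in naive cells at 6 h, against 12.43 and 12.49 in pretreated and 12.25 and 12.04 in naive cells at 0 h. The pretreated and naive arrays did not overlap at any time, with pretreated cells higher at 0 h and lower at 3 h and 6 h, although the 3 h arrays all lay within 0.05 of each other. The naive rise of Parp12 was 1.09 ± 0.10 at 3 h (0.88 to 1.31, adjusted p = 2.37e-05) and 1.02 ± 0.10 at 6 h (0.80 to 1.23, adjusted p = 2.12e-05).

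Parp10, a single-unit enzyme known as a binding partner of Myc, had the largest 3 h rise of the 9 genes. Its levels at 3 h were 10.94 and 10.87 in pretreated and 10.86 and 10.99 in naive cells, against 9.72 on both arrays of pretreated and 8.85 and 8.96 in naive cells at 0 h of set 2. At 6 h Parp10 measured 10.88 and 10.71 in pretreated and 10.84 and 10.81 in naive cells, against 10.03 and 9.75 in pretreated and 9.35 and 9.43 in naive cells at 0 h of set 1. Pretreated and naive arrays overlapped at both later times and not at 0 h. In naive cells the change was 2.02 ± 0.12 at 3 h (1.77 to 2.27, 4.05-fold, adjusted p = 6.54e-07) and 1.44 ± 0.12 at 6 h (1.18 to 1.69, 2.71-fold, adjusted p = 4.76e-06).

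Parp11 is a small WWE-domain enzyme that attaches single ADP-ribose units. Its level in set 2 was 11.02 and 10.92 in pretreated and 10.57 and 10.80 in naive cells at 3 h, against 10.06 and 10.17 in pretreated and 8.77 and 8.86 in naive cells at 0 h. In set 1 it was 11.28 and 11.23 in pretreated and 11.26 and 11.38 in naive cells at 6 h, against 10.14 and 10.35 in pretreated and 9.52 and 9.23 in naive cells at 0 h. Pretreated arrays were above naive ones at 0 h in both sets and at 3 h, and overlapped them at 6 h. Naive Parp11 rose by 1.87 ± 0.13 at 3 h (1.59 to 2.15, 3.66-fold, adjusted p = 2.3e-06) and by 1.94 ± 0.13 at 6 h (1.66 to 2.22, 3.84-fold, adjusted p = 9.95e-07). The naive rises of Parp10, Parp11 and Parp12 all held without any 1 array.

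Of the 9 genes 6 have an entry in the RefSeq promoter table (build GRCm38.p6, 250 bases before to 50 after an annotated start), with 7 promoters in all, and Parp9, Parp10 and Parp14 have no entry. Each promoter was searched on both strands for TTCNNNGAA, the gamma-activated sequence, and for the interferon-stimulated response element, taken as GAAA, 2 bases of any kind and GAAA again. The first was found in 8.3% of the 32851 promoters of the table, the second in 3.44% and both together in 0.454%. Of the 7 promoters only 1 of the 2 of Parp11 held either motif, and it held both. The interferon-stimulated response element, read on the reverse strand, begins 44 bases before the start and the gamma-activated sequence 37 bases before it. They overlap by 3 bases and together span 16 bases, in capitals below. The 2 Parp11 promoters (chr6:127446590-127446889 and chr6:127453377-127453676, both on the plus strand) are shown to set the start with the motifs beside the start without them. Those of Dtx3l (chr16:35938978-35939277, minus strand) and Parp12 (chr6:39118300-39118599, minus strand) are shown as genes that rose with neither motif in this window. The Dtx3l window lies inside the annotated span of Parp9.
Parp11, chr6:127446590-127446889: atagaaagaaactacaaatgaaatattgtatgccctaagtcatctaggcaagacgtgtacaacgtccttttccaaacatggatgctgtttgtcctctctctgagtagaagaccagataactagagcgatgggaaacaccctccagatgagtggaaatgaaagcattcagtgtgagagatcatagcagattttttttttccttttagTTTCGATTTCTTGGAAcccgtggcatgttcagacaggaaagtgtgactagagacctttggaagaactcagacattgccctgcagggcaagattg
Parp11, chr6:127453377-127453676: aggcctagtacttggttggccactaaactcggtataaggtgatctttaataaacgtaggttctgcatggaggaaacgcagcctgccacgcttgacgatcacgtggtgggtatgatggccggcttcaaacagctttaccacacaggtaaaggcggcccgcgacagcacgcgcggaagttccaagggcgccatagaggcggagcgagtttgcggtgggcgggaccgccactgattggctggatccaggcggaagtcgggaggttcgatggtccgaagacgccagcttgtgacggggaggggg
Dtx3l, chr16:35938978-35939277: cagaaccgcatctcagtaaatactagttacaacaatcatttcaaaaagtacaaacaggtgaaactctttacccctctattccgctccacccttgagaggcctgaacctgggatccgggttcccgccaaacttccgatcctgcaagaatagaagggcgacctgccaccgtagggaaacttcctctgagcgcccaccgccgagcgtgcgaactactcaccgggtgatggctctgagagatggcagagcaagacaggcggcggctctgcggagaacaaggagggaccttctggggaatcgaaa
Parp12, chr6:39118300-39118599: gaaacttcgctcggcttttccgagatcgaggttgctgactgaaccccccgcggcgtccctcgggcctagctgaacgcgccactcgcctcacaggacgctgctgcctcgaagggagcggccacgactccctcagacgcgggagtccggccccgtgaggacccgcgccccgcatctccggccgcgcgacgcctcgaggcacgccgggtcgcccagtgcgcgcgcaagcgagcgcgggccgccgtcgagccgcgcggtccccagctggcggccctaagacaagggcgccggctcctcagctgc
A match is a description of these letters and does not show that a factor binds there, and the array feature of Parp11 does not tell which start was used.

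Parp3, a single-unit enzyme that acts at DNA breaks, had levels of 10.71 and 10.57 in pretreated and 10.85 and 10.69 in naive cells at 3 h, against 9.97 and 10.09 in pretreated and 9.58 and 9.69 in naive cells at 0 h of set 2. At 6 h it measured 11.64 and 11.53 in pretreated and 11.92 and 11.69 in naive cells, against 10.29 and 10.32 in pretreated and 10.04 and 9.82 in naive cells at 0 h of set 1. The pretreated 0 h arrays lay above the naive ones in both sets. The naive change of Parp3 was 1.14 ± 0.12 at 3 h (0.87 to 1.40, adjusted p = 8.87e-05) and 1.87 ± 0.12 at 6 h (1.61 to 2.14, adjusted p = 9.21e-07).

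Parp8, whose function is little known, had the largest standard error of the 9 genes, 0.23 on the log2 scale. In set 2 its level was 11.60 and 11.13 in pretreated and 11.61 and 11.05 in naive cells at 3 h, against 11.01 and 10.77 in pretreated and 10.91 and 10.27 in naive cells at 0 h. In set 1 it was 12.40 and 12.28 in pretreated and 12.58 and 12.43 in naive cells at 6 h, against 11.44 and 11.64 in pretreated and 11.48 and 11.49 in naive cells at 0 h. Pretreated and naive cells overlapped at 0 h and 3 h. Its naive change of 0.74 ± 0.23 at 3 h (0.25 to 1.23, adjusted p = 0.092) did not pass, and it passed without naive 0 h replicate 3 (change 1.06, adjusted p = 0.03) and with the half-set, the first or last 4 arrays of a set, as a block (adjusted p = 0.00257). At 6 h Parp8 rose by 1.02 ± 0.23 (0.53 to 1.51, adjusted p = 0.00688), and the call was lost without naive 6 h replicate 1 (adjusted p = 0.0582).

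Parp1, the main sensor of DNA strand breaks, measured 10.03 and 10.14 in pretreated and 9.94 and 10.27 in naive cells at 3 h, against 10.32 and 10.67 in pretreated and 10.40 and 10.75 in naive cells at 0 h of set 2. At 6 h the level was 9.84 and 9.77 in pretreated and 9.58 and 9.56 in naive cells, against 10.60 and 10.41 in pretreated and 10.75 and 10.58 in naive cells at 0 h of set 1. The 6 h arrays of pretreated cells lay between those of naive cells at 6 h and the 0 h arrays. Its naive change of -0.47 ± 0.16 at 3 h (-0.82 to -0.12, adjusted p = 0.138) did not pass, and with the half-set as a block it did (adjusted p = 0.0138). At 6 h Parp1 fell to 0.469 of the naive 0 h level, a log2 change of -1.09 ± 0.16 (-1.44 to -0.75, adjusted p = 0.000412), and this call held without any 1 array.

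The naive change at 6 h was then set against the naive change at 3 h. Parp3 had a larger value at 6 h, by 0.74 ± 0.17 (0.36 to 1.11, adjusted p = 0.0543), and passed without naive 6 h replicate 2 (adjusted p = 0.0421). Parp10, Dtx3l and Parp14 had smaller values at 6 h, with differences of -0.58, -0.51 and -0.48, and that of Parp1 was -0.62. By limma 0 of the 9 genes passed the adjusted threshold, where 1.73% of all genes did, and 5 had an unadjusted p under 0.05, against 13.3% of all genes. With the half-set as a block 3 genes passed, Parp3 (adjusted p = 0.0218), Parp1 (adjusted p = 0.031) and Dtx3l (adjusted p = 0.0463). Differences for the other 4 genes, Parp8, Parp9, Parp11 and Parp12, lay between -0.11 and 0.28. The 3 h and 6 h arrays belong to different sets, so time and set cannot be told apart here.

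**Figure D2:**
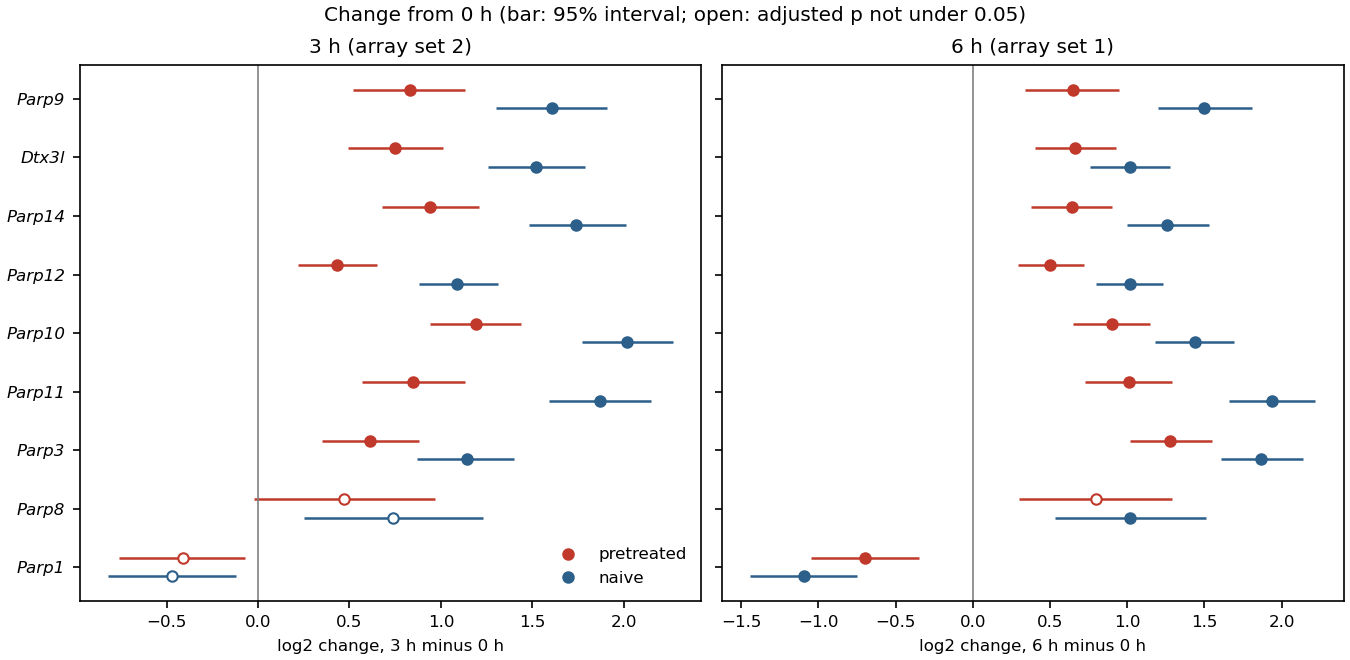
Log2 change from 0 h of each gene at 3 h (left, array set 2) and 6 h (right, array set 1) in pretreated (red) and naive (blue) cells, with 95% intervals as bars. Filled points passed the adjusted threshold and open ones did not. For the 8 genes with positive changes the pretreated point lies left of the naive one at both times.

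Before restimulation, 6 of the 9 genes were higher in pretreated than in naive cells: Parp11, Parp10, Parp9, Parp12, Parp14 and Dtx3l. Parp11 had the largest difference, 1.09 ± 0.09 on the log2 scale (SE, 95% interval 0.89 to 1.28, 2.12-fold, adjusted p = 3.47e-05) over 4 arrays a group. Parp10 followed with 0.66 ± 0.08 (0.48 to 0.83, adjusted p = 0.00103) and Parp9 with 0.61 ± 0.10 (0.39 to 0.83, adjusted p = 0.00781). The count of 6 higher and 0 lower compares with 0.808% of all genes higher and 0.155% lower, and the median difference of the 9 genes was 0.47, beside 0.02 for all genes. At an unadjusted p under 0.05 there were 7 genes, all higher, against 7.87% of all genes.

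Parp12 and Parp14 were each higher by 0.47 at 0 h (adjusted p = 0.00428 for Parp12 and 0.0165 for Parp14), and Dtx3l by 0.44 ± 0.09 (adjusted p = 0.0281). Parp3 differed by 0.38 ± 0.09 (0.20 to 0.57, adjusted p = 0.066), which did not pass, and which passed with the half-set as a block (adjusted p = 0.0245). Its pretreated arrays lay above the naive ones in both sets. The share of all genes whose arrays lay apart at 0 h was not counted. For Parp8 and Parp1 the differences were 0.18 (-0.17 to 0.53) and -0.12 (-0.37 to 0.12), with overlapping arrays. The calls of Parp10, Parp11 and Parp12 held without any 1 array. That of Parp9 was lost without naive 0 h replicate 2 (adjusted p = 0.0502). Leaving out naive 0 h replicate 1, 2, 3 or 4 or pretreated 0 h replicate 2 or 3 ended the call of Parp14 (adjusted p = 0.0502 to 0.0884), and leaving out naive 0 h replicate 1, 3 or 4 or pretreated 0 h replicate 2 or 3 that of Dtx3l (adjusted p = 0.0575 to 0.128).

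The 0 h difference was also taken within each array set, in the fit of all 16 arrays. In set 2 it was 1.30 for Parp11, 0.81 for Parp10, 0.73 for Parp9, 0.70 for Parp14, 0.67 for Dtx3l and 0.63 for Parp12, and these 6 genes passed (adjusted p = 0.000237 to 0.0428), where 0.441% of all genes were higher. In set 1 it was 0.87 for Parp11, 0.50 for Parp10, 0.49 for Parp9, 0.31 for Parp12, 0.24 for Parp14 and 0.20 for Dtx3l, and 1 gene, Parp11, passed (adjusted p = 0.0111), where 0.226% of all genes were higher. With each set fitted alone, set 2 called 2 of the 9 genes, Parp11 (adjusted p = 0.00519) and Parp10 (adjusted p = 0.0338), and set 1 called 0, with Parp11 at an adjusted p of 0.0575. Of the 6 calls in set 2, 4 were thus lost when that set was fitted alone, and so was the call in set 1. The difference between the sets passed for 0 of the 9 genes by limma (adjusted p = 1 for each) and for 0.00502% of all genes, and 4 of the 9 had an unadjusted p under 0.05, against 1.06% of all genes. The largest values of that difference were 0.47 for Dtx3l and 0.46 for Parp14, and the test does not show that the sets were alike.

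**Figure D3:**
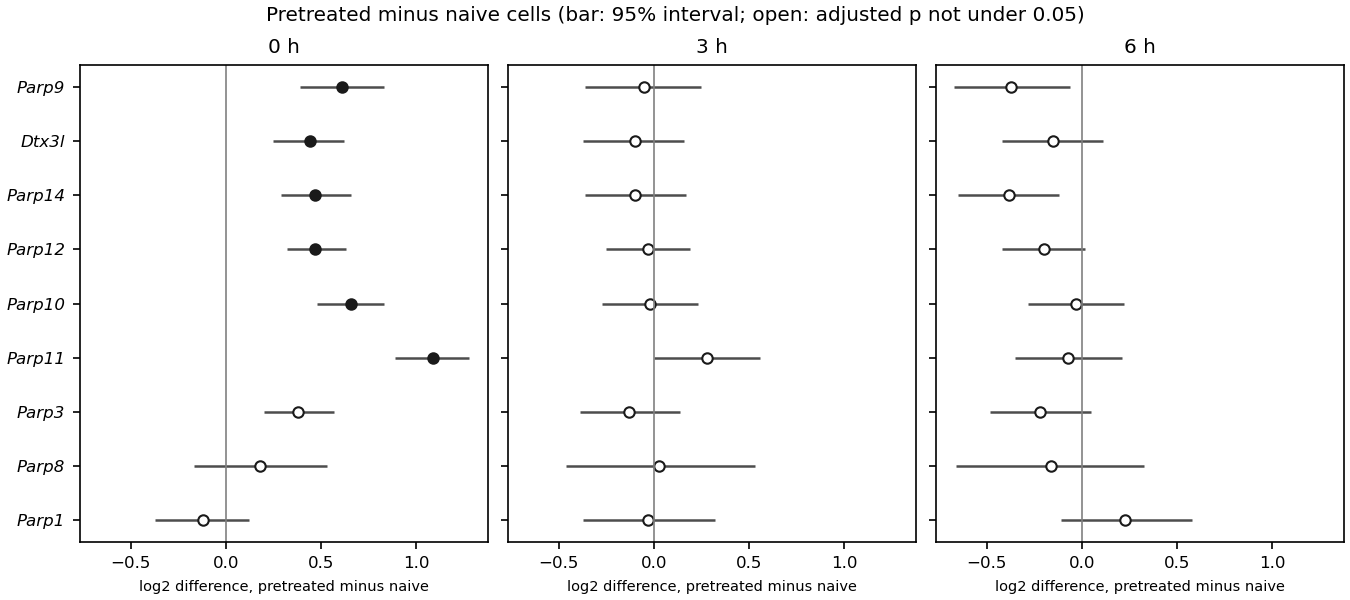
Log2 difference of pretreated minus naive cells for each gene at 0 h (both array sets), 3 h (set 2) and 6 h (set 1), with 95% intervals as bars. Filled points passed the adjusted threshold and open ones did not: 6 genes are filled at 0 h and none at 3 h or 6 h.

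Restimulated pretreated cells again had higher levels of most of the genes than pretreated cells at 0 h. At 3 h 7 of the 9 were higher and 0 lower, where 1.86% of all genes were higher and 0.998% lower, and at 6 h 7 were higher and 1 lower, where 2.89% were higher and 2.76% lower. At 3 h 8 of the 9 had an unadjusted p under 0.05, 7 higher and 1 lower, against 13.4% of all genes. Parp10 rose most at 3 h, by 1.19 ± 0.12 (2.28-fold, adjusted p = 0.000153), and Parp3 most at 6 h, by 1.28 ± 0.12 (2.43-fold, adjusted p = 9.04e-05). Both pretreated 3 h arrays lay above both pretreated 0 h arrays for 8 genes and below for Parp1, as they did for 14.6% and 20.9% of all genes, and at 6 h the same 8 and 1 compared with 16.6% and 22.2%. The median change was 0.75 at 3 h and 0.66 at 6 h, beside 0.00 and -0.03 for all genes.

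Among the neighbours on chromosome 16, the pretreated change at 3 h was 0.83 ± 0.14 for Parp9 (adjusted p = 0.00664), 0.75 ± 0.12 for Dtx3l (adjusted p = 0.00439) and 0.94 ± 0.12 for Parp14 (adjusted p = 0.000921). At 6 h it was 0.65 ± 0.14 for Parp9 (adjusted p = 0.0163), 0.66 ± 0.12 for Dtx3l (adjusted p = 0.00565) and 0.64 ± 0.12 for Parp14 (adjusted p = 0.00738). All 6 of these rises passed, and only that of Parp14 at 3 h held without any 1 array. The 3 h call was lost for Parp9 without pretreated 0 h replicate 4 or pretreated 3 h replicate 1 (adjusted p = 0.0676 to 0.0807) and for Dtx3l without pretreated 0 h replicate 4 (adjusted p = 0.0618). The 6 h call was lost for Parp9 without pretreated 0 h replicate 1 or pretreated 6 h replicate 1 or 2 (adjusted p = 0.105 to 0.126), for Parp14 without pretreated 0 h replicate 1 or pretreated 6 h replicate 1 (adjusted p = 0.0507 to 0.102) and for Dtx3l without pretreated 6 h replicate 2 (adjusted p = 0.074).

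Parp11 rose in pretreated cells by 0.85 ± 0.13 at 3 h (adjusted p = 0.0028) and by 1.01 ± 0.13 at 6 h (adjusted p = 0.000538). Parp10 rose by 0.90 ± 0.12 at 6 h (adjusted p = 0.000561). Parp12 had the smallest rises, 0.43 ± 0.10 at 3 h (adjusted p = 0.0373) and 0.50 ± 0.10 at 6 h (adjusted p = 0.00985). The calls of Parp10 and Parp11 held without any 1 array. The 3 h call of Parp12 was lost without any 1 of 12 arrays (adjusted p = 0.0527 to 0.229), namely all arrays except naive 0 h replicates 1 and 2 and pretreated 0 h replicates 1 and 2. Its 6 h call was lost without pretreated 0 h replicate 1 or pretreated 6 h replicate 1 or 2 (adjusted p = 0.0538 to 0.0912).

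Parp3 rose in pretreated cells by 0.61 ± 0.12 at 3 h (adjusted p = 0.017), a call lost without any 1 of the 4 arrays of that contrast, pretreated 0 h replicates 3 and 4 and pretreated 3 h replicates 1 and 2 (adjusted p = 0.0571 to 0.104). Its 6 h rise held without any 1 array. Parp8 changed by 0.47 ± 0.23 at 3 h (adjusted p = 0.401) and by 0.80 ± 0.23 at 6 h (adjusted p = 0.0648), neither past the threshold, and at 6 h it passed without either naive 3 h array or naive 0 h replicate 3 or 4 (adjusted p = 0.0342 to 0.0486). With the half-set as a block, Parp8 passed at 3 h (adjusted p = 0.0467) and 6 h (adjusted p = 0.00167) and Parp1 at 3 h (adjusted p = 0.0394). Parp1 changed by -0.41 ± 0.16 at 3 h (adjusted p = 0.26) and fell by 0.70 at 6 h (SE 0.16, adjusted p = 0.0209), a call lost without pretreated 0 h replicate 1 or pretreated 6 h replicate 1 or 2 (adjusted p = 0.106 to 0.153).

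After 3 h and 6 h the levels of pretreated and naive cells were close. At 3 h the differences lay between -0.13 for Parp3 and 0.28 for Parp11 (0.00 to 0.56, adjusted p = 1). By limma 0 of the 9 genes passed, where 0.015% of all genes did, and 1, Parp11, had an unadjusted p under 0.05, against 3.70% of all genes. Both pretreated arrays lay above both naive ones for Parp11 (13.0% of all genes) and below for Parp12 and Dtx3l (14.6%). At 6 h 8 of the 9 differences were negative, the largest -0.38 ± 0.12 for Parp14 (-0.65 to -0.12, adjusted p = 0.178) and -0.37 ± 0.14 for Parp9 (-0.67 to -0.06, adjusted p = 0.279). Again 0 of the 9 passed at 6 h, where 0.702% of all genes did, and these 2 had an unadjusted p under 0.05, against 12.3% of all genes. Both pretreated 6 h arrays lay below both naive ones for Parp3, Parp8, Parp9, Parp12, Parp14 and Dtx3l (19.0% of all genes) and above for Parp1 (24.2%). The 95% intervals reach from -0.67 to 0.58 at 6 h and from -0.46 to 0.56 at 3 h over the 9 genes, so these data do not show that the levels were alike.

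The fitted change from 0 h had a lower value in pretreated than in naive cells for each of the 8 genes with positive changes, and the test of this difference did not pass for any in the fit used throughout. Parp11 passed in 2 alternatives, at 6 h with the half-set as a block (adjusted p = 0.0341) and at 3 h after renewed quantile normalization (adjusted p = 0.0494). At 3 h the difference of the changes was -1.02 ± 0.18 for Parp11 (-1.42 to -0.63, adjusted p = 0.101), -0.83 ± 0.16 for Parp10 (adjusted p = 0.182), -0.80 ± 0.17 for Parp14 (adjusted p = 0.269) and -0.78 ± 0.20 for Parp9 (adjusted p = 0.657). By limma 0 of the 9 passed, where 0.0802% of all genes did, and 7 had an unadjusted p under 0.05, all negative, against 1.66% of all genes. At 6 h it was -0.93 ± 0.18 for Parp11 (-1.33 to -0.54, adjusted p = 0.0855), -0.85 ± 0.20 for Parp9 (adjusted p = 0.159) and -0.35 ± 0.17 for Dtx3l (adjusted p = 0.582). Again 0 of the 9 passed, where 0.145% of all genes did, and 6 had an unadjusted p under 0.05, all negative, against 9.12% of all genes. For Parp1 the differences were 0.06 ± 0.23 at 3 h and 0.39 ± 0.23 at 6 h (-0.10 to 0.88). These differences share their 0 h arrays with the comparison of pretreated and naive cells at 0 h, in which 6 of the 9 genes were higher in pretreated cells.

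Ordered by group mean within a set, Parp9, Dtx3l, Parp14, Parp12, Parp10, Parp11 and Parp3 ran from naive 0 h (lowest) through pretreated 0 h to the stimulated groups. The neighbours in that order that the test could not separate were pretreated and naive cells at 3 h and at 6 h for all 7, and pretreated and naive cells at 0 h for Parp3. The 0 h tests use both sets. With set 1 fitted alone the 0 h neighbours were separated for none of the 9 genes, and with set 2 fitted alone for Parp10 and Parp11 only. For Parp11 in set 2 the mean of naive cells at 3 h (10.68) came next after that of pretreated cells at 0 h (10.12). That pair was not tested. For Parp8 the pretreated and naive neighbours could not be separated at any time. By limma its changes from 0 h did not pass in naive cells at 3 h (adjusted p = 0.092) or in pretreated cells at 3 h (adjusted p = 0.401) and 6 h (adjusted p = 0.0648). For Parp1 the order ran the other way, from the stimulated groups (lowest) to the 0 h groups. Its 3 h changes did not pass in naive (adjusted p = 0.138, limma) or pretreated cells (adjusted p = 0.26, limma). At 6 h the pretreated mean of 9.81 ± 0.05 lay above the naive mean of 9.57 ± 0.01 (SD, n = 2 each), a difference of 0.23 that did not pass (adjusted p = 0.698, limma). For Parp1 and Parp8 in set 2, naive cells at 3 h and pretreated cells at 0 h were also neighbours that were not tested.

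Likeness between genes is given as a description, since the arrays may share culture and processing. Each value was taken from the mean of its set. The genes whose values ran most like each member over the 16 arrays were found by Pearson correlation over all 19938 genes. For Dtx3l they were Samhd1, Gbp7 and Gbp5 (r = 0.995, 0.993 and 0.988), a nucleotide-cleaving restriction factor and a pair of guanylate-binding proteins. For Parp11 they were Ifi205, Acod1 and Gm12250 (0.993, 0.991 and 0.989), where Acod1 makes itaconate in activated macrophages. Parp9 ran with Gbp9, Parp12 and Gbp3 (0.99, 0.988 and 0.985), and Parp12 with Gbp9, Parp9 and Gm12250 (0.988 each). Parp14 ran with Parp9, Ifi203 and Dtx3l (0.984, 0.981 and 0.981).

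Parp10 was most like Adar, an RNA-editing enzyme, then Rnf31 and Themis2 (0.985, 0.984 and 0.982). Parp3 was most like Wars, the tryptophan transfer RNA ligase, then 1110038F14Rik and Dbnl (0.985, 0.982 and 0.98), Parp8 most like Mcur1, Brd2 and Hivep1 (0.978, 0.956 and 0.954), and Parp1 most like Umps, an enzyme of pyrimidine synthesis, then Sntb2 and Xylt2 (0.978, 0.967 and 0.963). Among the 9 genes, Parp1 correlated at -0.95 to -0.80 with the others, and the other 8 at 0.82 (Parp8 with Parp10) to 0.99 (Parp9 with Parp12) with each other.

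Of the other PARP family genes 7 of 8 listed were measured, and Parp4 was not analysed here. In this list 2 genes were higher and 1 lower in naive cells at 3 h, where 3.37% of all genes were higher and 2.09% lower, and 2 were higher and 2 lower at 6 h, where 7.48% were higher and 10.8% lower. With so few genes in a list, these shares leave its counts as a description, here and in the lists that follow. Zc3hav1, the zinc-finger antiviral protein, rose by 0.66 at 3 h (adjusted p = 0.00389) and 0.47 at 6 h (adjusted p = 0.0114), and Tiparp, a target of the aryl hydrocarbon receptor, by 0.62 at 3 h (adjusted p = 0.0445) and 1.07 at 6 h (adjusted p = 0.000521). Parp16, an enzyme of the endoplasmic reticulum, fell by 0.81 at 3 h (adjusted p = 0.002) and by 0.98 at 6 h (adjusted p = 0.000193), and Parp2, the close relative of Parp1 at DNA breaks, fell by 0.59 at 6 h (adjusted p = 0.0052). Their median log2 change was 0.14 at 3 h and -0.13 at 6 h. In pretreated cells at 6 h Tiparp was higher by 0.84 (adjusted p = 0.00832) and Parp2 fell by 0.60 (adjusted p = 0.0134). The calls of Parp16, and those of Tiparp and Parp2 in naive cells at 6 h, held without any 1 array. That of Zc3hav1 was lost at 3 h without naive 3 h replicate 2 (adjusted p = 0.0553) and at 6 h without the first array of naive cells at 0 h or at 6 h (adjusted p = 0.0964 to 0.142). Tiparp was lost at 3 h without any 1 of 12 arrays (adjusted p = 0.0507 to 0.26), all but naive 6 h replicates 1 and 2 and pretreated 0 h replicates 1 and 2. In pretreated cells at 6 h Tiparp was lost without pretreated 0 h replicate 1 or pretreated 6 h replicate 1 (adjusted p = 0.0626 to 0.0915), and Parp2 without pretreated 0 h replicate 2 or pretreated 6 h replicate 1 or 2 (adjusted p = 0.0672 to 0.118).

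Enzymes that remove ADP-ribose, of which 5 of 6 listed genes were measured (Parg, Adprhl2, Macrod1, Macrod2 and Oard1), had 0 calls in each of the 10 comparisons by limma, with a median log2 change of 0.02 in naive cells at 3 h and of -0.09 at 6 h. Their own changes in naive cells lay between -0.32 and 0.36 at 3 h and between -0.38 and 0.07 at 6 h. Over the 10 comparisons 1 unadjusted p was under 0.05, for 1 of the 5 genes in pretreated cells at 3 h, where 13.4% of all genes had one. By adjusted p, 3.37% of all genes were higher and 2.09% lower in naive cells at 3 h, and 7.48% and 10.8% at 6 h. With 5 genes, 0 calls at such shares is no result about this list.

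Among 11 measured genes that make or consume NAD, the substrate of the PARP enzymes, 3 were higher and 1 lower in naive cells at 3 h (all genes 3.37% and 2.09%), and 2 were higher and 2 lower at 6 h (all genes 7.48% and 10.8%). Nampt, the rate-limiting enzyme of NAD salvage, rose by 1.68 at 3 h (adjusted p = 9.87e-06) and 1.84 at 6 h (adjusted p = 2.66e-06) in naive cells, and by 0.99 and 1.21 in pretreated cells (adjusted p = 0.00158 and 0.000266). Bst1, an NAD-cleaving surface enzyme, rose by 1.48 at 3 h (adjusted p = 0.0183) and 3.53 at 6 h (adjusted p = 1.37e-05) in naive cells and by 2.06 at 6 h in pretreated cells (adjusted p = 0.00254), and was higher by 1.32 in pretreated than in naive cells at 0 h (adjusted p = 0.0134). Nmrk1, a nicotinamide riboside kinase, fell by 0.78 at 3 h (adjusted p = 0.0336) and by 1.35 at 6 h (adjusted p = 0.000358) in naive cells, and by 0.82 at 6 h in pretreated cells (adjusted p = 0.0251). Naprt, the nicotinic acid enzyme, rose by 0.71 at 3 h (adjusted p = 0.0408) and Nmnat3 fell by 0.32 at 6 h (adjusted p = 0.0436), both in naive cells. The Nampt calls, and those of Bst1 at 6 h and Nmrk1 in naive cells at 6 h, held without any 1 array. The others did not. Bst1 was lost at 3 h without either naive 3 h array or naive 0 h replicate 3 (adjusted p = 0.0712 to 0.168) and at 0 h without naive 0 h replicate 1 or 3 or pretreated 0 h replicate 4 (adjusted p = 0.0651 to 0.0733). Nmrk1 was lost at 3 h without either naive 3 h array or naive 0 h replicate 3 or 4 (adjusted p = 0.101 to 0.187), and in pretreated cells without pretreated 0 h replicate 1 or 2 or pretreated 6 h replicate 1 (adjusted p = 0.0563 to 0.283). Naprt was lost without any 1 of 10 arrays (adjusted p = 0.0524 to 0.269), naive 0 h replicates 3 and 4, naive 3 h replicates 1 and 2, pretreated 0 h replicates 1 and 2 and all pretreated 3 h and 6 h arrays. Nmnat3 was lost without any 1 of 10 arrays (adjusted p = 0.0618 to 0.216), all naive ones and pretreated 6 h replicates 1 and 2. The naive change of Bst1 was larger at 6 h than at 3 h by 2.05 (adjusted p = 0.0477), a call lost without any 1 of 13 arrays (adjusted p = 0.0532 to 0.218), all but naive 0 h replicate 3 and pretreated 0 h replicates 1 and 2.

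Of the 4 other deltex ligases, Dtx4 fell in naive cells by 2.03 at 3 h (adjusted p = 2.51e-05) and by 1.94 at 6 h (adjusted p = 1.78e-05), and in pretreated cells by 1.57 at 3 h (adjusted p = 0.000547) and by 0.99 at 6 h (adjusted p = 0.00708). The 6 h fall in pretreated cells was lost without pretreated 0 h replicate 1 or pretreated 6 h replicate 1 or 2 (adjusted p = 0.055 to 0.0638). Dtx1, Dtx2 and Dtx3 passed in none of the 10 comparisons, no result about so few genes (all genes in naive cells 3.37% higher and 2.09% lower at 3 h, 7.48% and 10.8% at 6 h). Dtx3l and Dtx4, of the same ligase family, thus changed in opposite directions in naive and in pretreated cells.

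Partners of Parp1 in DNA repair had 1 of 6 higher and 3 lower in naive cells at 6 h, where 7.48% of all genes were higher and 10.8% lower. At 3 h 0 of 6 passed, where 3.37% of all genes were higher and 2.09% lower, and the difference between the times did not pass for any. Aplf, which binds ADP-ribose chains at breaks, fell by 1.17 (adjusted p = 0.00038), the chromatin remodeller Chd1l by 0.68 (adjusted p = 0.0147) and the repair scaffold Xrcc1 by 0.44 (adjusted p = 0.00883), while Polb, the base excision repair polymerase, rose by 0.41 (adjusted p = 0.0498). In pretreated cells at 6 h Aplf fell by 0.95 (adjusted p = 0.00502). The naive call of Aplf held without any 1 array. Xrcc1 was lost without naive 0 h replicate 2 (adjusted p = 0.057), Chd1l without either naive 6 h array or the first naive 0 h array (adjusted p = 0.0548 to 0.124), Polb without any 1 of 11 arrays, all naive ones except 6 h replicate 2, pretreated 0 h replicates 1 and 2 and pretreated 6 h replicates 1 and 2 (adjusted p = 0.0551 to 0.386), and Aplf in pretreated cells without pretreated 0 h replicate 2 or pretreated 6 h replicate 1 (adjusted p = 0.0528 to 0.0596).

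The list of interferon-gamma signalling genes had 9 measured members. In naive cells Socs1, the feedback inhibitor of the pathway, rose by 4.25 at 3 h (adjusted p = 8.97e-09) and 3.56 at 6 h (adjusted p = 5.53e-08), and the transcription factor gene Irf1 by 2.93 (adjusted p = 1.68e-07) and 2.26 (adjusted p = 9.21e-07). Jak2, Stat2 and Irf8 were also higher at both times, which makes 5 of 9 higher at each (all genes 3.37% at 3 h and 7.48% at 6 h), and at 3 h the receptor genes Ifngr1 and Ifngr2 fell by 0.93 (adjusted p = 0.00164) and by 0.58 (adjusted p = 0.0351). Stat2, Irf1 and Socs1 were higher in pretreated than in naive cells at 0 h, by 0.90, 1.11 and 0.54 (adjusted p = 6.07e-05, 8.9e-05 and 0.0279). In pretreated cells 3 were higher (Irf1, Irf8 and Socs1) and 1 lower (Ifngr1) at 3 h (all genes 1.86% and 0.998%). At 6 h 4 were higher (Stat2, Irf1, Irf8 and Socs1) and 1 lower (Ifngr1) (all genes 2.89% and 2.76%). The Stat2 call at 6 h was lost without any 1 of 12 arrays. The Ifngr1 call was lost without any 1 of 4 arrays at 3 h and of 3 arrays at 6 h. The 3 h change of Irf1 was smaller in pretreated than in naive cells by a log2 difference of -1.65 ± 0.21 (adjusted p = 0.00822), the only call of these lists in the tests of that difference. Leaving out 1 array ended 3 of the calls given here with their values: Ifngr2 at 3 h (adjusted p = 0.0526 to 0.359, leaving out any naive 0 h array, the second naive 3 h array or either pretreated 6 h array), Socs1 at 0 h (adjusted p = 0.0508 to 0.147, leaving out naive 0 h replicate 1, 2 or 3 or pretreated 0 h replicate 1, 3 or 4) and the Irf1 difference (adjusted p = 0.0525 to 0.0639, leaving out pretreated 0 h replicate 4, pretreated 3 h replicate 2 or naive 3 h replicate 2).

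**Figure D4:**
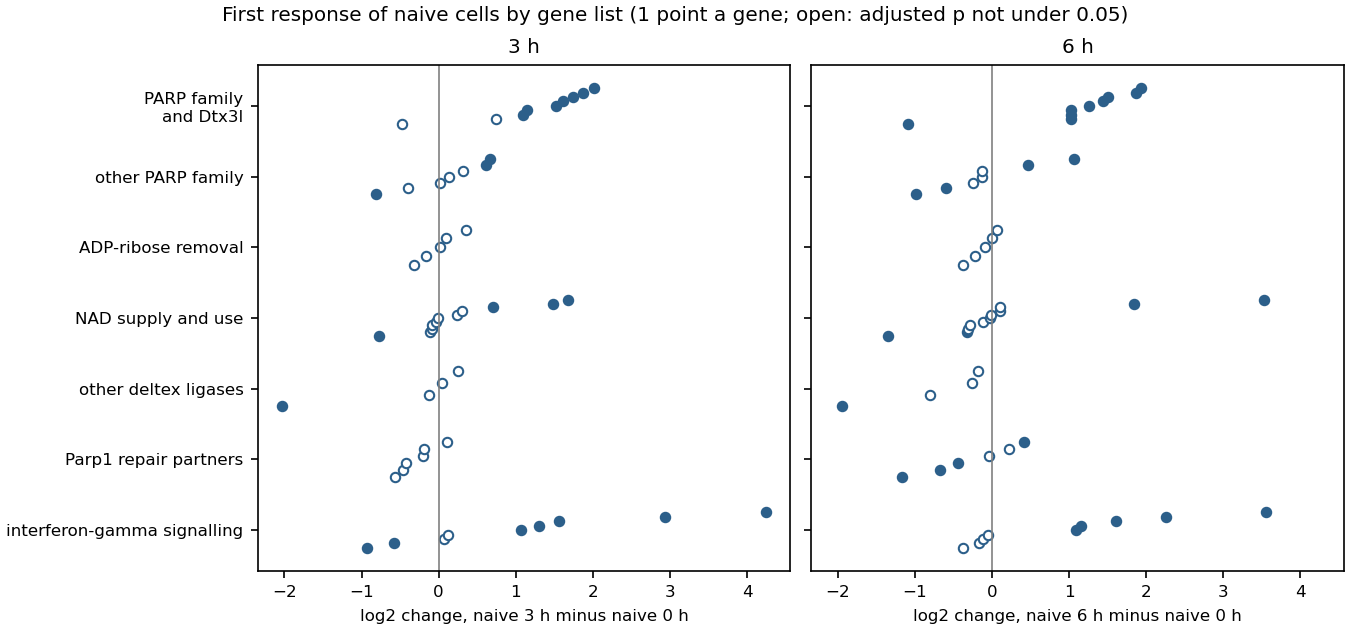
Log2 change of naive cells at 3 h (left) and 6 h (right) from naive 0 h, with 1 point a gene, for the PARP genes and Dtx3l and for the 6 gene lists. Filled points passed the adjusted threshold and open ones did not. The 5 genes that remove ADP-ribose are all open and lie between -0.38 and 0.36, and single genes of the NAD and interferon lists reach beyond 3.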

How the data were processed

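The deposited table holds 35557 features on 16 arrays as log2 intensities, a unit read from the range of the deposited values. Medians and minima differ between the array sets. How the authors corrected background, normalized and summarised probes is not given by the labels or files used here. The platform annotation gives 1 symbol to 21789 features, several to 1621 and none to 12147. For the 999 genes with several features the one with the highest mean was used, which left 19938 genes.

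A linear model with a mean for each of the 8 combinations of group and array set (8 residual degrees of freedom) was fitted with limma 3.58.1 in R 4.3.3, with empirical Bayes moderation and Benjamini-Hochberg adjustment over all genes (threshold 0.05). The 0 h comparison averages both sets. The script was tested on simulated data. Tables and figures used Python 3.11.15, pandas 2.3.3 and matplotlib 3.10.9. Arrays give no read depth, and their number limits the precision.

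The genes and lists were chosen with earlier results of these data known. All 9 genes are named whatever their result. Of each list up to 4 genes with the largest changes among those that passed are named, or all where a count is 5 or fewer, then the 3 genes most like each member by correlation and the nearest protein-coding neighbours. Alternatives tried were a filter on dim features, renewed quantile normalization, the mean of features, a trended and robust moderation, each array set alone, the half-set of the title numbering within a set as a block, which the labels do not call a batch, a 2-fold limit and leaving out each array.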

Additional observations from a re-analysis of the deposited data

Results flagged for a closer look

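Parp10 in pretreated cells at 0 h had 1 of 4 arrays apart from the others. After subtraction of the mean of the set's 0 h arrays the 4 values were 0.11, 0.39, 0.40 and 0.41, with replicate 2 the lowest, and its gap to the next value was 0.953 of the range, above the 95% critical value of Dixon's test. For independent values chance gives such a gap in about 1 of 20 groups, and 18 groups were tested. That rate may not hold here, since the subtracted mean includes the tested arrays and the groups of different genes share arrays. The 0 h call of Parp10 held without any 1 array.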

How the results depend on the processing

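Of 2070 values of a member's change under the alternatives, 1952 kept direction and side of the threshold. A further 74 lost the threshold, 20 gained it and 24 changed sign, 0 of them for a called change. Many of these values could hardly move, so the total is no measure of robustness. The 2-fold limit reuses the main fit, each member has 1 feature, and an array outside a contrast does not enter its change. Of 37 calls 24 held without any 1 array. Under a 2-fold limit, 1 member was called at 0 h, 1 in pretreated cells at 3 h and 2 at 6 h. At 0 h set 1 alone, called 0 members (Parp11 0.87, adjusted p = 0.0575) and set 2 alone called 2. Without dim features 1 member, Parp3, passed for 6 h minus 3 h in naive cells. Quantile normalization gave 1 call for the 3 h response difference (Parp11 -1.03, adjusted p = 0.0494) and turned the sign of Parp11 (-0.03) and Parp12 (0.10) for 6 h minus 3 h and of Parp1 (0.02) and Parp10 (0.01) for pretreated minus naive at 3 h.

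No label says what the half-sets share. Deviations of arrays in the same half-set correlated positively in each of the 12 pairs of groups, at 0.082 to 0.662 and below 0.1 in 1 of them (pretreated 3 h with pretreated 0 h), a hint from the data of a shared source, and the block was kept as an alternative. The half-set as a replicate block gave 3 member calls for 6 h minus 3 h and 1 for the 6 h response difference (Parp11, adjusted p = 0.0341), 9 in naive cells at 3 h and in pretreated cells at each time, and 7 at 0 h.

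Without each array in turn (a remaining single array takes the spread of the other groups), the count ranged from 0 to 1 for 6 h minus 3 h, from 3 to 7 in pretreated cells at 3 h and from 4 to 9 at 6 h. Changes that turned sign, none of them called, ranged for 6 h minus 3 h from -0.04 to 0.60 for Parp8, -0.23 to 0.02 for Parp9, -0.08 to 0.21 for Parp11 and -0.18 to 0.03 for Parp12. For pretreated minus naive at 3 h they ranged from -0.19 to 0.14 for Parp1, -0.24 to 0.31 for Parp8, -0.20 to 0.10 for Parp9, -0.08 to 0.04 for Parp10 and -0.20 to 0.01 for Parp14, and at 6 h from -0.12 to 0.06 for Parp10. For the 3 h response difference they ranged from -0.12 to 0.23 for Parp1 and -0.59 to 0.06 for Parp8. The cause was not tested for any of these.

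Over all genes, the block gave the highest counts, 1925 against 1088 in naive cells at 3 h, 1252 against 345 for 6 h minus 3 h, 684 against 192 at 0 h, 1272 against 569 and 1895 against 1126 in pretreated cells at 3 h and 6 h, 76 against 3 and 845 against 140 for pretreated minus naive at 3 h and 6 h, and 31 against 16 and 302 against 29 for the response differences. Leaving out 1 array gave as few as 543, 2217, 63, 142, 219, 486, 1, 13, 8 and 4 genes in the 10 comparisons in the order naive 3 h, naive 6 h, 6 h minus 3 h, 0 h, pretreated 3 h and 6 h, pretreated minus naive at 3 h and 6 h, and the 3 h and 6 h response differences.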

Other observations

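Of 22 measured neighbours of Parp1, Parp3, Parp8, Parp10, Parp11 and Parp12, 2 were higher and 1 lower in naive cells at 3 h by limma, where 3.37% of all genes were higher and 2.09% lower. At 6 h 1 was higher and 2 lower, where 7.48% and 10.8% of all genes were. The 6 h counts are near the share of all genes, and each 3 h call was lost without certain single arrays, named below. With so few calls, the counts at neither time are a result about the neighbours. Ccnd2, a cyclin gene beside Parp11, rose by 3.03 ± 0.56 (log2 change ± SE) at 6 h (adjusted p = 0.00221), a call that held without any 1 array. Lin9, a cell cycle regulator gene near Parp1, fell by 1.17 at 3 h (adjusted p = 0.0142) and by 1.61 at 6 h (adjusted p = 0.000598), and its 3 h call was lost without either naive 3 h array or naive 0 h replicate 3 or 4 (adjusted p = 0.0645 to 0.109).

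Itpkb rose by 0.56 at 3 h (adjusted p = 0.0198) and Grina by 0.51 (adjusted p = 0.0289), both calls lost without either naive 3 h array or naive 0 h replicate 4 (adjusted p = 0.103 to 0.206 for Itpkb and 0.104 to 0.268 for Grina). Cracr2a fell by 0.47 at 6 h (adjusted p = 0.008), a call lost without the second naive 6 h array or the first naive 0 h array (adjusted p = 0.063 to 0.0692).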
